A study of Mus musculus with 30 samples.

Results

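Among the 69316 open-chromatin peaks of the larger deposited table, 3917 were strong and kept to a 2-fold range of group levels. They are described here as constitutively open, invariant sites. They were chosen by their own scores: the mean normalized peak score over 26 libraries had to be at least 100, and the highest and the lowest of 13 group levels had to lie within 1 log2 unit, a 2-fold range. A group level is the mean of log2(score + 1) over the group's 2 libraries, and the difference between the highest and the lowest group level is called the spread. Of all peaks, 21410 had a mean score of at least 100 and are called strong, so the members made up 18.3% of the strong peaks and 5.65% of all peaks. The other 17493 strong peaks are the set they are compared with.

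Chromatin accessibility was measured by ATAC-seq, in which a transposase cuts and tags DNA that is not covered by nucleosomes, in mouse CD4+ T cells from lymph nodes and spleen. The 30 samples of the series form 15 groups of 2, of which 13 are named in this table. BATFKO Treg carried Foxp3-IRES-hCD2.Batf-/-, and WT Treg (CD4+hCD2+) and WT Tconv (CD4+hCD2-) carried the Foxp3-IRES-hCD2 reporter alone. Effector Treg (eTreg, CCR7lo CD62Llo) and central Treg (cTreg, CCR7hi CD62Lhi CD44lo) and the conventional effector (Teff) and naive (Tnaive) cells were sorted by surface markers from mice with the same reporter, the Treg as hCD2+ and the other cells as hCD2-. Foxp3R397W Treg and their WT control were hCD2+GFP- cells of mice that also carried a Foxp3-IRES-GFP allele, with Foxp3R397W-IRES-hCD2 in the mutant and Foxp3WT-IRES-hCD2 in the control. The series also holds a second control of that genotype and sort, for Foxp3KO mice, and the table's 2 columns named Foxp3 WT Treg were taken for the Foxp3R397W control only because the table names no other Foxp3 mutant of this kind. Treg lacking both factors (DKO, Foxp3KO-IRES-hCD2.Batf-/-) received a retrovirus with Foxp3 and BATF, Foxp3, BATF or none (mock) and were sorted as GFP+Thy1.1+ cells, so the mock cells carry both deletions too. The column names of all DKO libraries also hold the word vivo, and no other group's do. No label gives an age or says that the libraries of a group came from separate animals. The titles name ATAC-seq for the 7 groups from BATFKO Treg to Tnaive and omniATAC-seq, with another lysis buffer and transposase, for the 6 Foxp3R397W and DKO groups, while a second label of the DKO libraries reads ATAC-seq.

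Promoters of broadly used genes and binding sites of architectural proteins are known as the sites that stay open in most cell types, whereas enhancers tend to open and close with cell identity. In Treg, Foxp3 defines the lineage and BATF, an AP-1 family factor, is needed for the effector state, and both act mostly at enhancers. CpG-rich promoters typically carry letters bound by SP and KLF, ETS, NFY, NRF1 and YY1 factors.

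The promoters of 6 members are printed to show such letters. They are the stretches just before the gene start, 200 bases each, from RefSeq on GRCm38.p6, 5′ to 3′ on the gene's strand. Capitals mark any match to the 13 motifs searched (GGGCGG for SP/KLF, CCGGAAG for ETS, CCAAT for NFY, GCGCATGC for NRF1, AAGATGGCG for YY1, TGACGT for CREB/ATF, CACGTG for the E-box, ACTACAATT for ZNF143, CCANNAGGG for CTCF, TGANTCA for AP-1, TGTGGTT for RUNX, TGTTTAC for forkhead and AGATAA for GATA factors) on either strand, overlapping matches included.
Zfp622 (chr15:25984166-25984365, plus strand): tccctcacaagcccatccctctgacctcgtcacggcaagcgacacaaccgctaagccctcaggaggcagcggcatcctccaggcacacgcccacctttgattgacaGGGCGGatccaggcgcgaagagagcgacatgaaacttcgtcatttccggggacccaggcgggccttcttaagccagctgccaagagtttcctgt
Rbm15 (chr3:107333290-107333489, minus strand): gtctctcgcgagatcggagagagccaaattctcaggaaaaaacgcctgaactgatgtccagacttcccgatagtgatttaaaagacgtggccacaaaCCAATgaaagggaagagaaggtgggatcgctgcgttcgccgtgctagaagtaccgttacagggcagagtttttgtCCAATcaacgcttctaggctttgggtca
Cnnm4 (chr1:36471397-36471596, plus strand): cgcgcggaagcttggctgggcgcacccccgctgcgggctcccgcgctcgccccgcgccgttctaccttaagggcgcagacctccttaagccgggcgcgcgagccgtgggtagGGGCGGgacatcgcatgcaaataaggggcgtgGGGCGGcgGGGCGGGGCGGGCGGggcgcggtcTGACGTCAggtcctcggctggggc
Heatr5a (chr12:51971322-51971521, minus strand): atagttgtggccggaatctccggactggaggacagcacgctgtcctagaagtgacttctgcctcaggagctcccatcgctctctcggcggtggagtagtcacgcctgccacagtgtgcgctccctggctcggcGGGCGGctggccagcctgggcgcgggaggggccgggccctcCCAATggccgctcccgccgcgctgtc
Papolg (chr11:23895271-23895470, minus strand): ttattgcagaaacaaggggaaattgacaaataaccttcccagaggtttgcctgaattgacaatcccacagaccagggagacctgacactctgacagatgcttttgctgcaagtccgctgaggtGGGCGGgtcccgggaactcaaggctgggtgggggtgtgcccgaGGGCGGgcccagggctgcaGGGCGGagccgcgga
Gtf2e1 (chr16:37539790-37539989, minus strand): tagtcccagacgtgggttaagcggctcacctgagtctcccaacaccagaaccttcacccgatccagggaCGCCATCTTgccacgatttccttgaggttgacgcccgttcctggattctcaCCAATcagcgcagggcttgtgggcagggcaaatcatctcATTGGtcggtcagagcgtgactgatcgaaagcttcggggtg
Zfp622 and Rbm15, a zinc finger protein and an RNA-binding protein, were shown as promoters with some of the highest mean scores, Cnnm4, Heatr5a and Papolg as ones with some of the smallest spreads, and Gtf2e1, a subunit of the basal transcription factor TFIIE, as a basal transcription gene. The stretch of Cnnm4 held 5 SP/KLF matches, the last 3 overlapping, and a palindrome that counts as 2 CREB/ATF matches, that of Papolg 3 SP/KLF matches, and that of Gtf2e1 2 NFY matches and 1 YY1 match. Rbm15 held 2 NFY matches and none of the SP/KLF letters, and only 107 of its 200 bases lay inside the peak. The stretches of the members at Prcp and Papola were also read but are not printed. That of Prcp held 2 SP/KLF matches and 1 GATA match, and that of Papola held none of the 13 motifs.

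Counted over whole 300-base start windows (50 bases after the start included), members and other strong promoters had close values. The 1776 start windows within 250 bp of a member's centre had a median GC content of 61.7% and 22 CG dinucleotides, against 61.3% and 22 in the 5322 windows at other strong peaks, and 52.7% and 7 over all 32851 start windows. SP/KLF letters were present in 69.1% of the members' windows, 69.0% of the other strong windows and 35.7% of all windows. For ETS letters the shares were 23.4%, 21.1% and 8.86%. For NRF1 letters they were 8.11%, 5.90% and 2.71%. CTCF letters stood in 5.86%, 6.37% and 5.98% of the windows, NFY letters in 40.9%, 41.3% and 37.4%, and YY1 letters in 3.378%, 3.81% and 1.403%. AP-1 letters, the kind BATF binds with its partners, were in 3.72%, 4.604% and 7.81%, RUNX letters in 2.93%, 4.06% and 5.27%, and forkhead letters in 2.48%, 2.65% and 3.65%. These shares are descriptions with no test, and a match is not a bound site. Sequence of peaks away from gene starts was not used here.

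Each library had between 3716499 and 25462278 reads in peaks, of which the members held 15.3% to 19.1%. As a check of the labels, the most variable strong peak inside Foxp3, picked by its values, had scores of 316 to 1119 in the 20 libraries named Treg and 1.28 to 13.6 in the 6 named Tconv, Teff or Tnaive. Another deposited table, with 68597 peaks in 22 libraries, holds 18 of the same libraries, but 12 of these carry a different group name there. The names of the larger table are used throughout. Without any grouping, 1685 members (43.0%) still had all 26 single libraries within 1 log2 unit, and the widest single-library range of a member was 1.97.

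The members were of intermediate to high score. Their mean score had a median of 356, with quartiles of 203 and 569.7 and a range of 100.1 to 1908, beside a median of 231 and a maximum of 5893 for the other strong peaks. The spread had a median of 0.82 and a minimum of 0.31, and 169 members (4.31%) had a spread of at most 0.5. Since the rule fixed these values, they are given as a description. Just inside the limit on the spread stood peaks at Caprin2, Jagn1 and Amd1 with spreads of 0.9996, 0.9998 and 0.9999. Just outside it stood peaks at Cmss1, 2210010C04Rik and Hdac4 with 1.0001 each. Just inside the limit on the score stood peaks at Arid5b, Arsg and S100a6 with mean scores of 100.1 each, and just outside it peaks near Clint1, Ostm1 and Pdss2 with mean scores of 99.97, 99.93 and 99.88.

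The 8 members with the smallest spreads lay at or near the genes Cnnm4, Heatr5a, Morn2 (with Dhx57), Sord, Papola, Papolg, Calm2 and Disp1, with spreads of 0.31 to 0.38. Papola and Papolg encode related poly(A) polymerases, which add the tail of messenger RNA, Calm2 encodes calmodulin, and Sord encodes sorbitol dehydrogenase. The peak at the start of Cnnm4, a metal ion transporter, is at chr1:36471229-36471629 and had scores of 302 and 287 in BATFKO Treg, 227 and 308 in WT Treg and 235 and 284 in Tconv. The sorted subsets had 287 and 252 (eTreg), 283 and 267 (cTreg), 274 and 250.4 (Teff) and 286 and 254 (Tnaive). They were 273 and 294 in Foxp3R397W Treg and 306 and 288 in the control. In DKO Treg they were 344 and 246 with both factors, 325 and 293 with Foxp3, 289 and 354 with BATF and 323 and 289 with mock virus. The libraries of every other group overlapped the range of the 2 WT Treg libraries. Papolg (chr11:23895041-23895441) ranged over the 26 libraries from 402 through a median of 466 to 598, and Heatr5a (chr12:51971138-51971538) from 284 through 337 to 422.

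The 8 members with the highest mean scores included promoters of Prcp, a lysosomal carboxypeptidase (mean score 1764), Rbm15 (1708), Zfp622 (1694), Nudt2 (1603), Idi1, an enzyme of isoprenoid and cholesterol synthesis (1585), and Etv5, an ETS family transcription factor (1566). The highest of all (1908) lay on chromosome 8, 45091 bp from the body of Zfp958. At Zfp622 the single libraries ran from 1148 through a median of 1668 to 2333, and at Prcp from 1009 through 1686 to 2649. For all 8 the lowest group was the Foxp3R397W control.

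**Figure D1:**
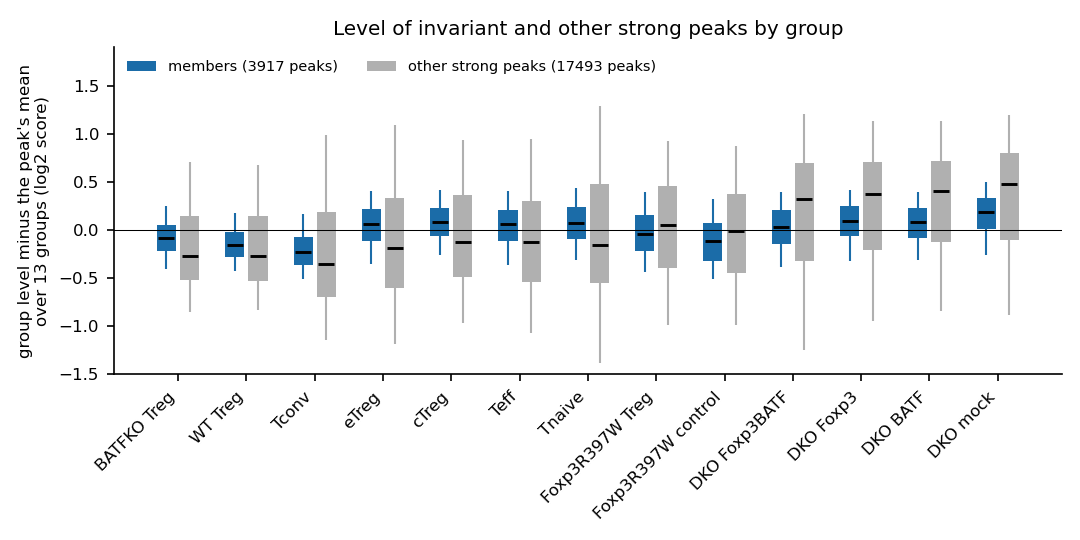
Level of the members (blue) and of the other strong peaks (grey) in each of the 13 groups, as the group level minus the same peak's mean over the 13 groups, in log2 score units. Boxes span the quartiles, black marks are medians and lines run from the 5th to the 95th percentile over peaks; members keep to medians between -0.23 (Tconv) and 0.18 (DKO mock), against -0.35 and 0.47 in the other strong peaks.

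Even within the allowed range the members leaned the same way as the rest of the strong peaks in the DKO and Tconv libraries. The plot of levels by group shows this lean. Relative to each peak's mean over the groups, their median level was 0.03 to 0.10 in DKO Treg with Foxp3, BATF or both and 0.18 with mock virus. It was 0.06 to 0.08 in eTreg, cTreg, Teff and Tnaive, -0.04 in Foxp3R397W Treg and -0.12 in the control. It was -0.08 in BATFKO Treg, -0.15 in WT Treg and -0.23 in Tconv. The mock DKO group was the highest of 13 for 1037 members (26.5%), and Tconv the lowest for 1121 (28.6%) and the Foxp3R397W control for 864 (22.1%). In the other strong peaks the medians were 0.47 in the mock DKO group, 0.32 to 0.40 in the other DKO groups and -0.35 in Tconv. They were -0.27 in BATFKO Treg and in WT Treg, and -0.01 in the Foxp3R397W control. In eTreg, cTreg, Teff and Tnaive they were -0.18 to -0.12, and in Foxp3R397W Treg 0.06, opposite in sign to the members. Both libraries of a group differed by a median of 0.11 to 0.25 log2 units over members and 0.14 to 0.29 over the other strong peaks, largest in the DKO groups in both sets.

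Members lay at gene starts more often than the other strong peaks. On the chromosomes with listed starts, 2034 of 3756 members lay within 1 kb of a gene start, which is 54.2% (95% Wilson interval 52.6% to 55.7%, counting error only), against 36.9% of the other strong peaks and 17.4% of all peaks. Strong peaks with higher scores lie more often at starts, so the shares are also given in 5 classes of the mean score. In the lowest class (mean scores of 100 to 136.7) they were 19.3% of members and 15% of the other strong peaks, in the middle class 46.0% and 34% and in the highest class (above 536) 77.1% and 71.5%. The share was higher among members in each of the 5 classes. It also followed the spread: 57.3% and 58.2% at spreads up to 0.5 and from 0.5 to 0.8, 51.0% from 0.8 to 1, and then 41.4% and 9.04% in strong peaks with spreads of 1.5 to 2 and above 3. Members at starts had a median mean score of 461, and members away from starts of 242, with median spreads of 0.81 and 0.83. Of the 1722 members away from starts, 1113 (64.6%) overlapped a protein-coding gene body, against 60.7% of the other strong peaks away from starts. Only 40 members (1.02%) lay beyond 100 kb of any gene body, against 3.77% of the other strong peaks. The farthest was 881860 bp away, on chromosome 12.

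A strong peak at a start belonged to a member for 2014 of 7993 genes, or 25.2%. Of these 2014 genes, 1806 were protein coding and 208 gave long noncoding RNAs. A start on each strand within the window, as at divergent promoters, was about equally common at members (17.7%) and at the other strong peaks (18%).

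Genes that every cell uses were divided between members and other strong peaks. Of 26 housekeeping genes with a strong peak within 1 kb, 10 had a member, which is 38.5%. Sdha, a subunit of succinate dehydrogenase, had the steadiest start peak of the list, shared with its neighbour Ccdc127 (spread 0.48, single libraries from 546 to 820). Start peaks of Emc7 (spread 0.53), Gusb (0.73), Tbp, the TATA-binding protein (0.85), Eef1a1, a translation elongation factor (0.90), and Hprt, an enzyme of purine salvage (0.94), were members too. The start peaks of Gapdh (1.63), Polr2a (1.97), Rpl13a (2.09) and Ppia (2.28), genes often used as references for expression, were not. Each was highest in the mock DKO group, as were the members at Gusb and Eef1a1. The members at Sdha, Emc7, Tbp and Hprt were highest in other groups. Ribosomal protein genes had a member at 13 of 80 genes (16.3%), spliceosome genes at 3 of 32 (9.38%), genes of the mitochondrial ribosome at 19 of 75 (25.3%), proteasome subunits at 10 of 35 (28.6%) and genes of basal transcription and RNA polymerase II at 8 of 26 (30.8%). CTCF and cohesin genes, whose products shape chromosome loops, had a member at 6 of 12, among them Wapl (spread 0.67), Pds5b (0.74) and Smc1a (0.79). The strongest start peak was a member at 3 of 9 genes of this list, and those of Ctcf (1.60), Smc3 (1.66) and Mau2 (1.93) were not members. These counts have no test, and some genes share a start peak with a neighbour.

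Members were also found at T-cell genes. Pan T-cell genes had a member at 7 of 28 genes with a strong peak (25%), Treg identity genes at 7 of 21 (33.3%), effector Treg genes at 5 of 14 (35.7%) and naive and central T-cell genes at 5 of 17 (29.4%). Counted by peaks, members were 13 of 148 strong peaks of the pan T-cell list (8.78%), 11 of 72 of Treg identity (15.3%), 9 of 45 of effector Treg (20%) and 5 of 71 of the naive list (7.04%). By the same count they were 11 of 36 of housekeeping (30.6%), 13 of 89 of ribosomal proteins (14.6%) and 4 of 37 of the spliceosome list (10.8%), beside 18.3% of all strong peaks. They were 7 of 19 of CTCF and cohesin (36.8%) and 8 of 26 of basal transcription and RNA polymerase II (30.8%). For proteasome subunits they were 12 of 41 (29.3%) and for the mitochondrial ribosome 20 of 88 (22.7%). No member lay at the 5 B-cell, 3 CD8 and NK cell, 2 myeloid and 1 erythroid genes that had a strong peak. The start peaks of Entpd1, which encodes the ectoenzyme CD39 (spread 0.75, mean score 794), Il2ra, which encodes the IL-2 receptor chain CD25 (0.85, 315), Foxo1, a factor of quiescence and homing (0.87, 426), Cd55 (0.93, 530.2), Prdm1, which encodes Blimp-1 (0.94, 607), and Ptprc, which encodes CD45 (0.97, 159), were members. Most start peaks of these lists were not. The strongest start peak was a member at 1 of 20 pan T-cell and 3 of 11 Treg identity genes. It was a member at 1 of 10 effector Treg and 2 of 9 naive and central T-cell genes. Those of Ctla4 (spread 1.77), Lck (1.99), Cd3e (2.11) and Tnfrsf4 (3.32) were not members.

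**Figure D2:**
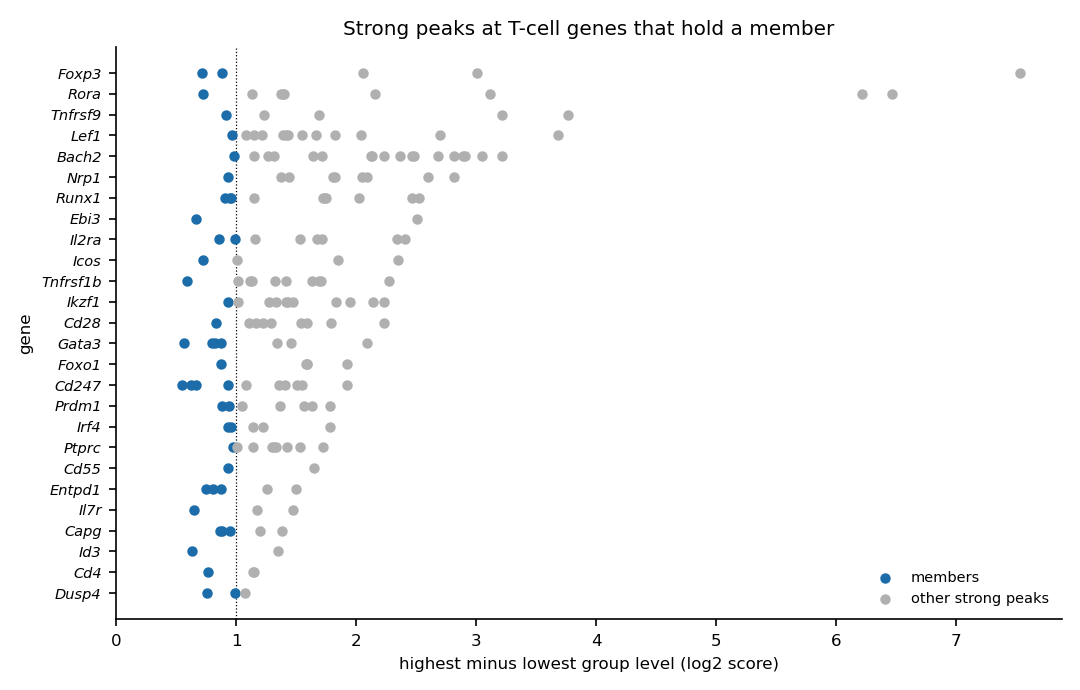
Spread (highest minus lowest group level, log2 score units) of every strong peak within 10 kb of the body of 26 T-cell genes that hold both a member (blue) and another strong peak (grey). The dotted line is the limit of the rule at 1; the grey points reach 7.53 at Foxp3.

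The plot of strong peaks at T-cell genes covers 26 genes, picked because each holds both a member and another strong peak. These genes held 43 members among 179 strong peaks. The pick raises this share, so nothing is read from it. At Foxp3 a member at chrX:7574548-7574948, outside the annotated gene body and 467 bp from a listed start of Ppp1r3f, had scores of 356 to 862 in the libraries named Treg. Its scores were 506 and 545 in Tconv, 416 and 515 in Teff and 467 and 587 in Tnaive, inside the range of the Treg libraries. The peak inside the Foxp3 gene body at chrX:7583922-7584322, with a spread of 7.53, had 316 to 1119 in the Treg libraries. It had 4.90 and 13.6 in Tconv, 7.84 and 7.83 in Teff and 1.28 and 9.07 in Tnaive, with no overlap. At Il2ra the start peak (chr2:11642550-11642950) ranged over the 26 libraries from 229.9 through a median of 313 to 453. A site before it (chr2:11637093-11637493) ranged from 43.5 through 114 to 255, with 43.5 and 49.9 in Teff against 178 and 218 in Tnaive. Other genes with wide neighbours were Rora (member 0.72, widest other peak 6.47), Lef1 (0.96 and 3.68) and Tnfrsf9, which encodes 4-1BB (0.92 and 3.76). At Gata3 and Cd247, 4 members each stood beside strong peaks with spreads up to 2.09 and 1.92.

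The share of members varied with gene density. Of strong peaks at starts, 28.8% were members with 0 to 4 protein-coding genes within 500 kb of the peak, 35.5% with 5 to 8 and 7.59% with 33 to 72. Away from starts the shares were 9.44% with 0 to 4 genes, 18% with 9 to 12 and 8.21% with 33 to 72. Of chromosomes 1 to 19 and X, chromosome 11 had the lowest share, 109 of 1517 strong peaks (7.19%), followed by chromosome 19 (11.1%), while chromosomes 18 and X had 26.7% each. On chromosome 11 the share was 25% with 0 to 4 genes within 500 kb, with 48 strong peaks, and 0.61% with 33 to 72 genes, with 326. No member lay on the unplaced sequences, which held 39 strong peaks.

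**Figure D3:**
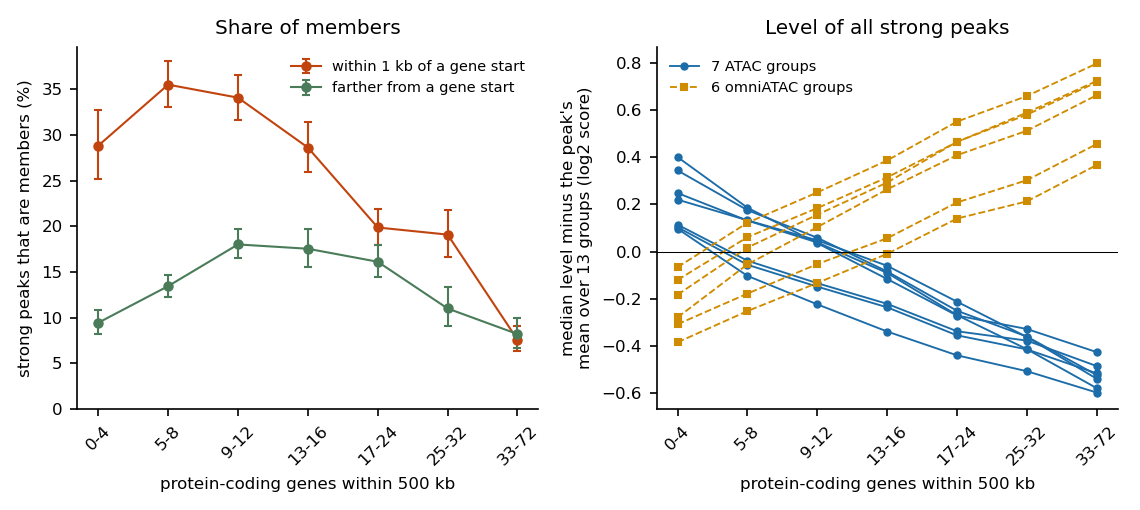
Left, share of strong peaks that are members by the number of protein-coding genes within 500 kb, at gene starts (orange) and away from them (green), with 95% Wilson intervals. Right, median level of all strong peaks in each of the 13 groups relative to the peak's mean over groups (log2 score), with the 7 groups titled ATAC in blue and the 6 titled omniATAC in amber; at 33 to 72 genes the blue groups lie between -0.60 and -0.43 and the amber ones between 0.37 and 0.80.

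The level of all strong peaks moved with gene density in opposite ways in 2 sets of libraries. With 0 to 4 genes within 500 kb the median relative level was -0.39 to -0.07 in the 6 DKO and Foxp3R397W groups and 0.10 to 0.40 in the other 7. With 33 to 72 genes it was 0.66 to 0.80 in the DKO groups, 0.46 in Foxp3R397W Treg and 0.37 in their control. It was -0.60 to -0.43 in the other 7 groups. The titles give omniATAC for the first 6 and ATAC for the other 7, so the protocol and the genotypes or sorts cannot be told apart. WT Treg occur under both titles: the Foxp3R397W control minus WT Treg differed by a median of -0.52 with 0 to 4 genes and 0.89 with 33 to 72. Of the 21410 strong peaks, 5105 (23.8%) differed by over 1 between these 2 groups, against 1771 (8.27%) between WT Treg and Tconv and 2773 (13%) between eTreg and cTreg. Between mock DKO Treg and the Foxp3R397W control, both titled omniATAC, 3250 (15.2%) did. Between mock DKO Treg and eTreg 8913 (41.6%) did, and between eTreg and WT Treg, both titled ATAC, 1197 (5.59%). The libraries read as the Foxp3R397W control are named cTreg, a group titled ATAC, in the second table. Since 12 libraries carry other names in the second table, the part of the protocol was not tested.

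**Figure D4:**
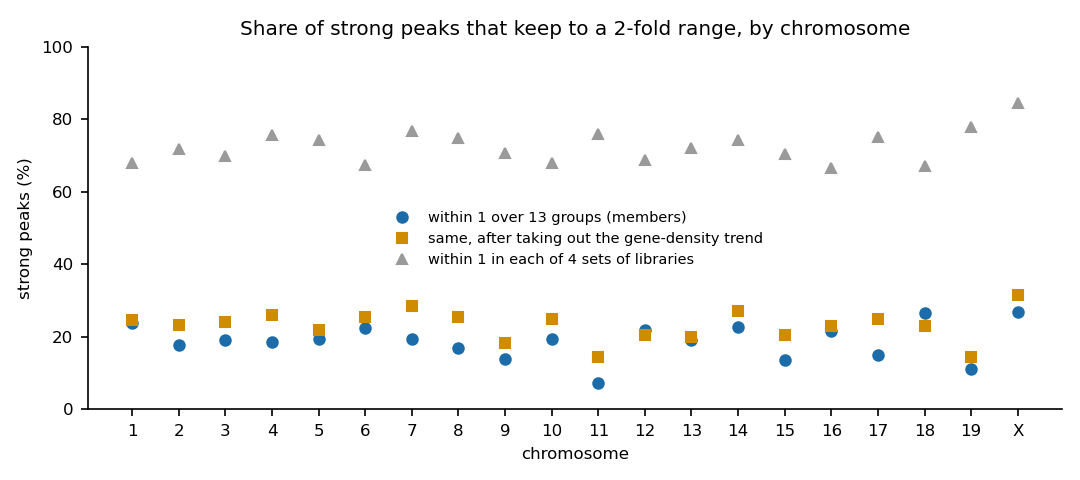
Share of the strong peaks of each chromosome that keep to a 2-fold range, as members over all 13 groups (blue circles), over the 13 groups after the gene-density trend of each library is taken out (amber squares), and within each of 4 sets of libraries separately (grey triangles). Chromosome 11 has 7.19%, 14.3% and 76.1%.

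Within sets of libraries named alike in the table, most strong peaks were steady. A spread of at most 1 was found for 19264 strong peaks (90%) over BATFKO Treg, WT Treg and Tconv, for 16010 (74.8%) over eTreg, cTreg, Teff and Tnaive, for 21008 (98.1%) over Foxp3R397W Treg and control, and for 19034 (88.9%) over the 4 DKO groups. In each of these 4 sets at once, 15471 strong peaks (72.3%) kept to a spread of 1, of which 11554 were not members. By titles, 14705 (68.7%) did so over the 7 ATAC groups and 14878 (69.5%) over the 6 omniATAC groups. Chromosome 11, lowest among members, had 76.1% within 1 in each of the 4 sets. When the median level of strong peaks with a like number of nearby genes was taken out of each library, 4910 strong peaks kept to a spread of 1. They included 2451 members, which is 62.6% of the members and 49.9% of the 4910. The share of strong peaks that passed was then 14.3% with 0 to 4 genes and 33.3% with 33 to 72 genes, and 14.3% on chromosome 11. Of the 4910, 54.7% lay at a gene start. These 2 ways of counting were chosen after seeing the data.

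Between groups of the same table, members were called less often than peaks in general, which the rule brings about, so nothing is read from these counts. The limma test at a Benjamini-Hochberg adjusted p under 0.05 over all peaks called 453 members in eTreg minus cTreg, where it called 37.1% of all peaks. It called 554 members in Teff minus Tnaive (40.3% of all peaks), 106 in WT Treg minus Tconv (20.0%), 49 in cTreg minus Tnaive (16.6%) and 74 in eTreg minus Teff (17.5%). In BATFKO minus WT Treg, Foxp3R397W minus control and DKO with Foxp3 minus mock it called 0 members, where it called 1.49%, 2.63% and 1.82% of all peaks. At an unadjusted p under 0.05 it would have marked 1.89%, 0.996% and 2.30% of members in these contrasts, against 8.41%, 13.4% and 13.5% of all peaks. It called 5 members in DKO with BATF minus mock (3.49%) and 218 in DKO with both minus mock (23.3%), 192 of them lower. In all, 1037 members passed in at least 1 of the 10 contrasts, 26.5% of members against 57.7% of the other strong peaks and 62.2% of all peaks. Same-numbered libraries of the 4 DKO groups deviated together: between their 6 pairs of groups, the second minus the first replicate correlated across peaks at r = 0.54 to 0.65 over members and 0.15 to 0.21 over all peaks. No label says that the number marks a batch. With the number as a replicate block within the DKO groups, chosen after seeing the data, 10 members were called with Foxp3, 29 with BATF and 600 with both minus mock (3.27%, 4.51% and 27.8% of all peaks). All contrasts share one estimate of the spread, so with this block 6 members each were called in BATFKO minus WT Treg and in Foxp3R397W minus control, and 1893 members (48.3%, against 69.8% of all peaks) in at least 1 contrast.

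Only 4 deposited libraries took no part in the choice of members. They allow a check of the difference between their own labels, but not of the range over 13 groups. They are in the smaller table, labelled Teff and Tnaive there, with 13950840 to 28958694 reads in peaks. Those labelled Teff had scores of 695 and 733 at the peak inside Foxp3, and the libraries labelled Tnaive had 1035 and 1085. These levels go against labels of hCD2- cells, so what the libraries are is not settled and the contrast is named by its labels alone. The groups of the series that the larger table does not name are Foxp3KO Treg and their WT Treg control. The smaller table gives those names to the libraries that the larger one names Teff and Tnaive. Whether the 4 libraries are Foxp3KO Treg and their control was not tested. Of the members, 3882 matched a peak of this table with a reciprocal overlap of at least 0.5.

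**Figure D5:**
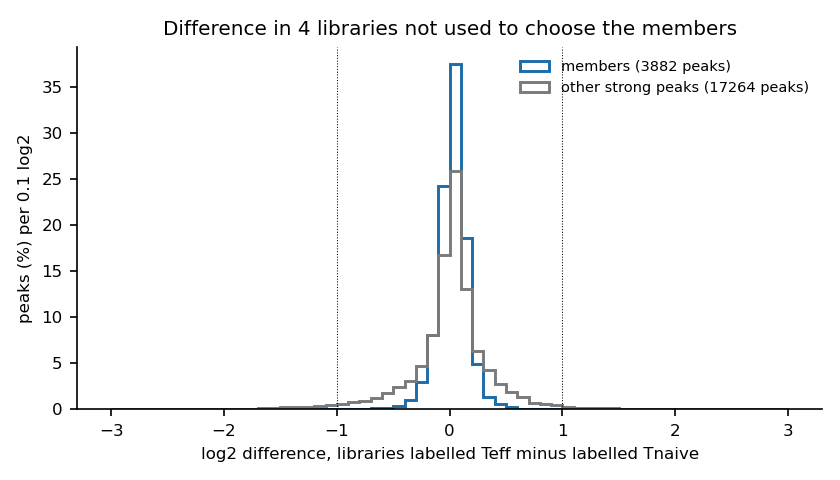
Distribution of the log2 difference between the libraries labelled Teff and those labelled Tnaive in the smaller table, as the percentage of peaks per 0.1 log2, for the members (blue) and the other strong peaks (grey); values beyond 3 are drawn at 3. Dotted lines mark a 2-fold difference either way, and no member lies outside them.

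Members stayed within narrow limits in these libraries too. In the libraries labelled Teff minus those labelled Tnaive, limma called 6.06% of all 68597 peaks and 4 of the 3882 members (0.10%), against 1111 of 17264 other strong peaks (6.44%). The error of this fit came from all 22 libraries, of which 18 had served to choose the members. Fitted alone, the 4 libraries use none of those. That fit called 136 members (3.50%), against 21.7% of all peaks and 23.1% of the other strong peaks. All 3882 members lay within 1 log2 unit either way and 3866 (99.6%) within 0.5. Of the other strong peaks 97.2% lay within 1 and 87.1% within 0.5, and of all peaks 90.6% and 73.7%. The median size of the difference was 0.08 in members, 0.13 in the other strong peaks and 0.23 in all peaks. The median SE was 0.16 for members and 0.30 for all peaks in the fit of all 22 libraries. It was 0.10 and 0.19 with the 4 libraries fitted alone. Members had higher scores than the other strong peaks, and the part of the score in this was not tested. The plot of differences in these libraries shows the narrower curve of the members. Members were called less often than the background under each alternative, but their number depended on the libraries fitted and on the tool. It was 222 (5.72%, against 23.7% of all peaks) with edgeR on the recovered reads of the 4 libraries. The median difference was 0.03 to 0.05 in members and 0.02 to 0.05 in the other strong peaks over the classes of gene density.

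All 4 members called in the fit of all 22 libraries were lower in the libraries labelled Teff. Of the 136 called with the 4 libraries fitted alone, 75 were higher and 61 lower. The peak nearest Mrpl1, which encodes a protein of the mitochondrial ribosome (chr5:96201641-96202041), had scores of 322 and 300.03 in the libraries labelled Teff and 554 and 534 in those labelled Tnaive, a log2 difference of -0.80 ± 0.21 (SE, limma adjusted p = 0.014). The peak nearest Dbx1, a homeobox gene of the nervous system (chr7:49633310-49633710), had 320.1 and 371 against 551 and 622 (-0.76 ± 0.20, limma adjusted p = 0.019). The peak nearest Tmem17, a membrane protein of the ciliary transition zone (chr11:22512393-22512793), had 307 and 323 against 474 and 520.3 (-0.66 ± 0.20, limma adjusted p = 0.041). The peak nearest Snx4, a sorting nexin of endosomal recycling (chr16:33337166-33337566), had 379.7 and 349 against 557 and 573 (-0.63 ± 0.20, limma adjusted p = 0.048). In none of the 4 did the libraries of the labels overlap, but they were picked by this same comparison, so this adds no support. The next by adjusted p, nearest Mbnl2, an RNA splicing regulator, had 546 and 497 against 343 and 344 (0.60 ± 0.19, limma adjusted p = 0.051) and did not pass. No call among members remained when a library labelled Tnaive or the second labelled Teff was left out, and 1 when the first labelled Teff was. An arm then held a lone library, assumed to vary like the other groups, so nothing is read from these counts. The median size of the difference was then 0.08 to 0.10 in members and 0.24 to 0.26 in all peaks.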

How the data were processed

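Levels were read from 2 tables the authors deposited, which give a normalized score, a signal of 0 or more, for each peak: 69316 peaks in 26 libraries and 68597 peaks in 22 libraries. Per the submitters' processing notes, the build was mm10 and the tools included MACS2 2.2.7.1 and Bowtie2 2.4.1, with edgeR 3.36.0 or 3.38.4 and DiffBind 3.0.15 or 3.4.11; no settings are stated. The deposited scores are whole reads divided by 1 factor per library, since 100% of the values came out whole within 0.02 reads. Depth was taken from these recovered reads, and intervals cover counting error only. The number of columns left out was 0. Columns named as Foxp3 WT Treg carry no sample name of their own and were read, by inference, as the Foxp3R397W control.

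The members, the 15 gene lists and the motifs were chosen with earlier results of these data known. Gene starts and sequences came from RefSeq on GRCm38.p6 (the mm10 build); starts on chromosome 18 were not used here. Distances run from the peak's centre. Members were named by these rules: the 8 highest mean scores and the 8 smallest spreads, up to 2 genes per list, 3 peaks on either side of each limit, the 5 smallest adjusted p in the libraries not used for the choice and the 5 farthest from a gene. Some of these are summarised only. Start peaks and T-cell gene peaks named beyond these rules were chosen after their values were seen.

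Differences were tested with limma 3.58.1 (trended, robust) under R 4.3.3 on log2(score + 1), fitting all groups of a table together and adjusting over all its peaks. This scale understates the change of low peaks. No label says that libraries came from separate animals, so a p-value reflects the spread of these libraries alone, which may be technical. The test was tried on simulated data first. Alternatives were edgeR 4.0.16, which called 16250 peaks, and DESeq2 1.42.0, both on the recovered reads of the 4 libraries, and other limits, pseudocounts, scalings and left-out libraries. No label pairs libraries by replicate number, so the reported fit has no replicate block; fits with one were added as alternatives.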

Additional observations from a re-analysis of the deposited data

How the results depend on the processing

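The number of invariant sites (3917) depended on the limit and on which libraries were compared. It was 1758 with a spread of at most 0.8, 6992 with a wider limit, 14222 without the omniATAC groups and 14978 without the ATAC groups. Counted in ways chosen after seeing the data, it was 15471 within each of 4 sets of libraries and 1685 over single libraries. The share at gene starts (54.2%) was 58.1%, 51.5%, 52.1%, 48.0%, 51.2% and 60.7% in the same order. It was 46.9% and 63.3% with mean scores of at least 50 and 200, 58.4% with quantile scaling, and 47.3% and 57.7% within 250 and 2000 bp of a start. The causes of these shifts were not tested. Leaving out 1 library gave 3402 to 4126 sites, with 86.0% to 98.2% of the members kept and 53.7% to 55.3% at starts. Quantile scaling left 5633 sites, 3225 of them members.

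Calls in at least 1 contrast of the larger table (1037 members, 26.5%, against 62.2% of all peaks) came to 1603 with quantile scaling (40.9% against 67.0%). They came to 1893 with a replicate block within the DKO groups (48.3% against 69.8%). In the 4 other libraries, the 4 calls among members became 7 with a pseudocount of 5, 11 with quantile scaling, 136 with these libraries fitted alone, 222 with edgeR, 59 with DESeq2, and 0 to 1 with a library left out, where the lone library of an arm is assumed to vary like the other groups. With a replicate block over all groups, 1160 members were called in at least 1 contrast of the larger table (29.6%, against 63.6% of all peaks). The count in the 4 other libraries was then 4 (6.21% of all peaks). In the 4 other libraries, deviations of the first replicates correlated at r = 0.02 over all peaks and 0.18 over members, and no label pairs them. The median SE was 0.16 for members and 0.30 for all peaks, and the part of depth in this was not tested.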
